A study of Mus musculus with 3 samples.

Results

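The prostaglandin and leukotriene genes described here are *Pla2g4a*, *Ptgs1*, *Ptgs2*, *Ptges*, *Ptger2*, *Ptger4*, *Alox5*, *Alox5ap* and *Ltc4s*, 9 of the 32285 genes in the count matrices, taken by their gene symbols. They were followed in murine bone marrow-derived macrophages (BMDMs) treated with lipoproteins of *Borrelia burgdorferi* (*Bb*LP), the spirochete of Lyme disease. Bone marrow of female C3H/HeN mice aged 6 to 8 weeks was grown into macrophages in medium conditioned by L929 cells. The paper's culture method pools the marrow of several mice, while its single-cell method describes macrophages from 3 mice treated separately. The cells were left with PBS (Ctrl, labelled untreated) or given *Bb*LP at 1 µg/mL, with LP1 collected after 1 hour and LP4 after 4 hours. Ctrl cells were collected together with LP4, so LP1 differs from Ctrl in collection time as well as in treatment. Droplet-based single-cell RNA sequencing gave 1 library per condition, each from the pooled cells of 3 wells, so the spread between cultures was not measured and no test between conditions was made. Every interval below is a 95% interval that covers counting error only.

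Eicosanoids are lipid mediators made from arachidonic acid, which cytosolic phospholipase A2 releases from membranes. Cyclooxygenases turn arachidonic acid into prostaglandin H2, from which terminal synthases make prostaglandin E2 and other prostanoids, whereas 5-lipoxygenase, aided by its activating protein, turns it into leukotriene A4, the source of leukotriene B4 and of the cysteinyl leukotrienes. Macrophages are known to make mediators of both arms, and prostaglandin E2 acts back on them through its EP receptors.

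Unique molecular identifiers (UMIs), which count transcripts, were summed over 6071 Ctrl, 5065 LP1 and 4670 LP4 cells and given per 1000000 UMIs of the library (CPM). The median cell had 5133 UMIs (Ctrl), 9343 (LP1) or 11784 (LP4), and between 4 and 10 barcode sequences occurred in a given pair of libraries. A limit of 5% mitochondrial UMIs removed 18, 43 and 273 barcodes in the same order. All 10 listed macrophage markers had UMIs in every library, with a summed level of 11667 CPM (Ctrl), 11875 (LP1) and 10804 (LP4). Levels of different genes were not compared, since reads from the 3' end do not count all transcripts equally well. After 4 hours the median log2 ratio to Ctrl of all 14361 genes with at least 20 UMIs in both libraries together was -0.15. Median-of-ratios scaling moved that median by 0.21, and split the genes past 2-fold into 15.3% higher and 11.5% lower, where CPM gave 11.6% higher and 15.6% lower.

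After 4 hours, 4 of the 9 genes stood at least 2-fold above Ctrl and 2 at least 2-fold below. *Pla2g4a*, *Ptgs2*, *Ptges* and *Ptger2*, which together cover release of arachidonic acid, its conversion to prostaglandin E2 and a receptor for it, were the genes above. They compare with the 11.6% of genes tested that were that much higher in LP4. The 9 genes were chosen with earlier results of these data known, so a count above this share is no test of the list. *Ptger4* and *Ltc4s* were the genes below, beside a background of 15.6%, and neither passed 2-fold under median-of-ratios or TMM scaling. The median log2 ratio of the 9 genes was -0.01. After 1 hour none of the 9 reached 2-fold in either direction, where 1.45% of 14085 genes tested were higher and 3.15% lower. The median log2 ratio of the 9 was then 0.06, beside -0.04 for all genes tested. Between LP4 and LP1 the same 4 genes were at least 2-fold higher in LP4 (10.9% of 14506 genes tested) and *Ptger4* was at least 2-fold lower (12.5%). At a 1.5-fold line, LP1 still held none of the 9 on either side (5.78% of all genes tested higher, 9.07% lower), LP4 over Ctrl kept 4 higher (20.7%) and 2 lower (29.4%), and LP4 over LP1 had 4 higher (18.8%) and 2 lower (24.4%). The comparisons with Ctrl share its library, so they are not independent of each other.

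**Figure D1:**
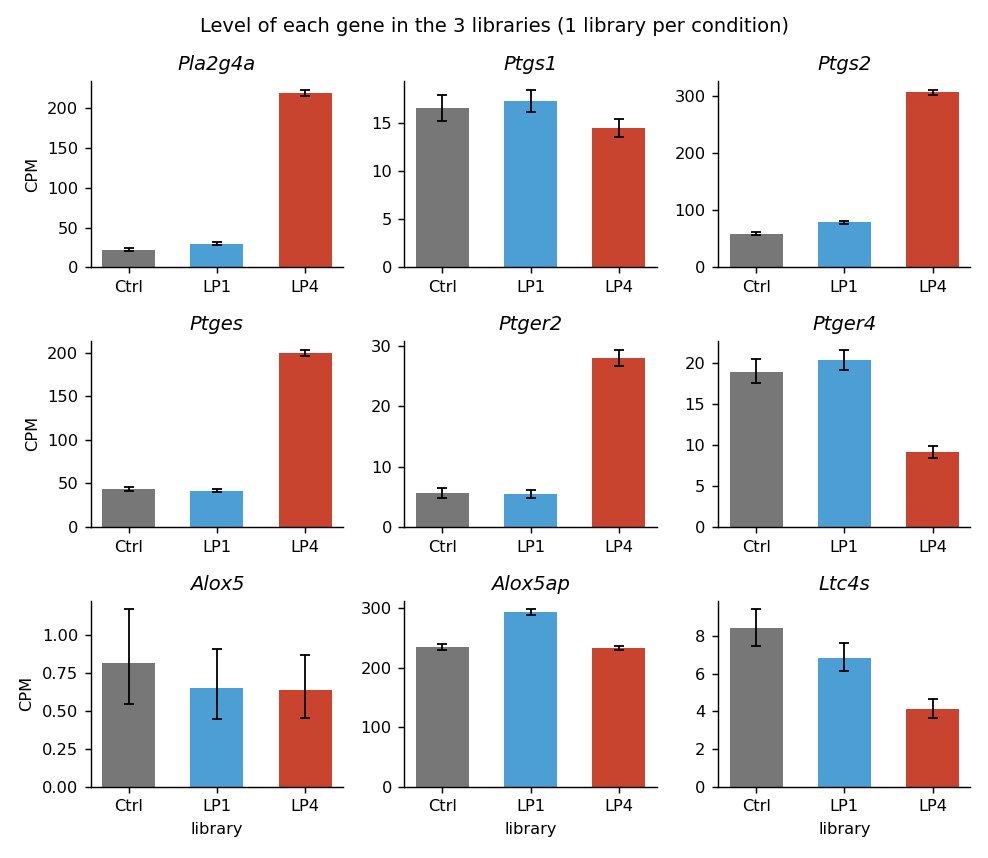
Level of each of the 9 genes (CPM, vertical axis, linear from 0 and set for each gene) in the Ctrl, LP1 and LP4 libraries. Bars are 1 library each and error bars are exact Poisson 95% intervals. *Pla2g4a*, *Ptgs2*, *Ptges* and *Ptger2* are highest in LP4, *Ptger4* and *Ltc4s* are lowest there, and *Alox5ap* is highest in LP1 at 293 CPM.

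The DNA ahead of the start sites of the 4 genes that stood higher in LP4 is shown because these genes share a direction. RefSeq windows on GRCm38.p6 were found for 8 of the 9 genes, and *Alox5ap* was not among them. The 250 bases before each start are printed 5' to 3' on the strand of the gene, from the reference mouse genome and not from C3H/HeN, with matches to a C/EBP motif (TTNNGNAA, either strand) in capitals.
*Pla2g4a*, chr1:149961291-149961540, minus strand: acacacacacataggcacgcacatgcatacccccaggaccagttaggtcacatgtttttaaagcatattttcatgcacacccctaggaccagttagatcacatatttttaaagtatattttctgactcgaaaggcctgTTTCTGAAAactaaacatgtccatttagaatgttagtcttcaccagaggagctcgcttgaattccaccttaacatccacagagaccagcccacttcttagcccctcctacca
*Ptgs2*, chr1:150099781-150100030, plus strand: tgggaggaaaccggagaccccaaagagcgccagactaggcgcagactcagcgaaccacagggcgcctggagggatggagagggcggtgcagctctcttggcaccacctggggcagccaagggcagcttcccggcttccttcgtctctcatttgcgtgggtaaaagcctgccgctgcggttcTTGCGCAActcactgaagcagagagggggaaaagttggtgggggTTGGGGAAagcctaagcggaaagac
*Ptges*, chr2:30903298-30903547, minus strand: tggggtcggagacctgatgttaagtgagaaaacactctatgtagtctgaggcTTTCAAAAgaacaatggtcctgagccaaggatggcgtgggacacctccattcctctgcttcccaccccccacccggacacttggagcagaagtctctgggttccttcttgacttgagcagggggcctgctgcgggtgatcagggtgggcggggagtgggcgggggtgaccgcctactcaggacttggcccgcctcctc
*Ptger2*, chr14:44987861-44988110, plus strand: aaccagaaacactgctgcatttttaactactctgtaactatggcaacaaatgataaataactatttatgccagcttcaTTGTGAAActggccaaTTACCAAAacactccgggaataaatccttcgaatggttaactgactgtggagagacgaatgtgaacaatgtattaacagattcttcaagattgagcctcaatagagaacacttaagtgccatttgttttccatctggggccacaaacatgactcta
The C/EBP letters were present in all 4 of these windows and in 36.8% of all 32851 RefSeq windows of this length. They were absent from the windows of *Ptgs1*, *Ptger4*, *Alox5* and *Ltc4s*, and from a second *Pla2g4a* window at a start further inside the gene. The printed *Ptges* window, before a RefSeq start at 30903297, also lies inside its gene as annotated (chr2:30889471-30929863). The pair of matches before *Pla2g4a* overlap each other, and *Ptgs2* and *Ptger2* hold 2 separate matches each. The window before *Ptgs2* also overlaps an exon of *Ptgs2os*, a noncoding gene on the other strand. Of 6 further motifs searched on both strands, the NF-kB consensus of 10 letters (7.25% of all windows), the CRE core TGACGT (6.47%) and the AP-1 letters TGANTCA (6.75%) were in none of the 9 windows. The PU.1 core GAGGAA (23.3%) lay before *Ptgs2*, *Ptges*, *Ptgs1* and *Alox5*, and the GC box GGGCGG (32.7%) before *Ptgs2*, *Ptges*, *Alox5* and *Ptger4*. The TATA box TATAAA (12.4%) lay in the second *Pla2g4a* window and in none of the other 8. The motifs were picked with the levels known, and a match is a run of letters, not evidence that a factor binds. An absence holds for these 250 bases alone, since DNA further from the starts was not searched. The shares over all windows were not matched for GC content. It was 43.2% in the first *Pla2g4a* window, 61.6% for *Ptgs2*, 59.6% for *Ptges* and 38% for *Ptger2*, beside a median of 52.4%.

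*Pla2g4a* encodes cytosolic phospholipase A2 alpha, the enzyme that frees arachidonic acid from membrane phospholipids. The gene (ENSMUSG00000056220, chr1:149829618-149961290, minus strand, mm10) had 790 UMIs (Ctrl), 1562 (LP1) and 13485 (LP4), or 22.1, 29.8 and 220 CPM. It had the largest ratio of the 9 genes, 9.92-fold in LP4 over Ctrl (log2 3.31, interval 3.21 to 3.42), and ranked 164th from the top of all genes tested. In LP1 the log2 ratio to Ctrl was 0.43 (0.30 to 0.55), so the larger step lay between 1 and 4 hours, where LP4 stood 2.88 above LP1 on the log2 scale (2.81 to 2.96).

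No other listed gene of arachidonate release and reacylation reached 2-fold above Ctrl in LP4. Of 14 such genes, 12 had at least 20 UMIs. None of these was 2-fold higher in LP4 than in Ctrl, beside 11.6% of all genes tested. The 5 that were 2-fold lower, beside 15.6%, were *Pla2g4c*, *Pla2g6*, *Pla2g2e*, *Pla2g5* and *Mgll*. *Mgll*, monoacylglycerol lipase, which cleaves monoacylglycerols and so frees arachidonic acid, had 34.8 CPM (Ctrl), 26.4 (LP1) and 12.1 (LP4) (log2 LP4 over Ctrl -1.53, -1.66 to -1.40). The 4 phospholipase genes that were lower had at most 3.81 CPM in any library. *Acsl4*, an acyl-CoA synthetase that loads arachidonic acid for return to membranes, had 163, 166 and 206 CPM (log2 LP4 over Ctrl 0.34, 0.29 to 0.38).

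*Ptgs1* and *Ptgs2* encode cyclooxygenase 1 and 2, commonly described as the constitutive and the inducible form. *Ptgs2* (ENSMUSG00000032487, chr1:150100031-150108227, plus strand) had 2102 UMIs (Ctrl), 4129 (LP1) and 18774 (LP4), or 58.9, 78.7 and 306 CPM. LP4 stood 5.19-fold above Ctrl (log2 2.38, 2.31 to 2.44), and LP1 stood 0.42 above Ctrl on the log2 scale (0.34 to 0.49). In the PBS-treated library, 1314 of 6071 cells held a *Ptgs2* UMI.

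*Ptgs1* (ENSMUSG00000047250, chr2:36230426-36252272, plus strand) held 16.5 CPM (Ctrl), 17.2 (LP1) and 14.4 (LP4). Its log2 ratio to Ctrl was 0.06 in LP1 (-0.09 to 0.22) and -0.19 in LP4 (-0.34 to -0.04). The LP4 ratio became 0.02 under median-of-ratios scaling, so *Ptgs1* had no direction that held under every scaling. The LP4 ratio of *Ptgs2* ran from 2.35 to 2.58 over 10 alternative settings.

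*Ptges* encodes microsomal prostaglandin E synthase 1, the terminal enzyme commonly coupled to cyclooxygenase 2. The gene (ENSMUSG00000050737, chr2:30889471-30929863, minus strand) had 1554 UMIs (Ctrl), 2196 (LP1) and 12270 (LP4), or 43.5, 41.8 and 200 CPM. LP1 and Ctrl did not differ beyond counting error (log2 -0.06, -0.15 to 0.04), and LP4 stood 4.59-fold above Ctrl (log2 2.20, 2.12 to 2.28). *Ptges* thus differed from *Ptgs2* and *Pla2g4a* at 1 hour, when the intervals of those 2 genes lay above 0.

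Among the other terminal synthases tested, *Ptges3* was above Ctrl in LP4 by less than 2-fold and the rest were below Ctrl. The median of all genes tested was below Ctrl as well (log2 -0.15). Of 9 listed prostanoid synthase genes, 7 were tested and none was 2-fold higher in LP4 than in Ctrl (11.6% of all genes tested). The 1 that was 2-fold lower (15.6%) was *Prxl2b*, a prostamide and prostaglandin F synthase, with 36.0, 30.1 and 15.4 CPM. *Ptges3*, the cytosolic prostaglandin E synthase also known as the co-chaperone p23, had 125, 135 and 184 CPM (log2 LP4 over Ctrl 0.55, 0.50 to 0.60). *Ptges2* had 11.2, 10.2 and 7.95 CPM. The genes for synthases of other prostanoids were below Ctrl in LP4. *Hpgds*, prostaglandin D synthase, had 145, 142 and 93.5 CPM (log2 -0.63, -0.69 to -0.58). *Tbxas1*, thromboxane A synthase, had 163, 142 and 103 CPM (log2 -0.66, -0.71 to -0.61). The *Hpgds* and *Tbxas1* ratios lay between 1.5-fold and 2-fold lower, and 29.4% of all genes tested were at least 1.5-fold lower. *Ptgis*, prostacyclin synthase, had at most 2 UMIs in any library.

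Among 5 genes for breakdown and transport of prostanoids, *Abcc4* was the 1 that was 2-fold higher in LP4 (11.6% of all genes tested). It encodes MRP4, a membrane pump that exports prostaglandin E2, and had 22.5 CPM (Ctrl), 21.9 (LP1) and 85.1 (LP4) (log2 LP4 over Ctrl 1.92, 1.81 to 2.03). Like *Ptges*, *Abcc4* did not differ between LP1 and Ctrl beyond counting error (log2 -0.04, -0.17 to 0.09). *Hpgd*, the dehydrogenase that inactivates prostaglandin E2, was lower in LP4 on few UMIs, 47 in Ctrl and 29 in LP4.

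*Ptger2* and *Ptger4* encode EP2 and EP4, the receptors through which prostaglandin E2 raises cyclic AMP, and they stood on opposite sides of Ctrl. *Ptger2* (ENSMUSG00000037759, chr14:44988195-45003820, plus strand) had 201, 288 and 1720 UMIs, or 5.63 CPM (Ctrl), 5.49 (LP1) and 28.0 (LP4). LP4 stood 4.97-fold above Ctrl (log2 2.31, 2.10 to 2.53), and LP1 and Ctrl did not differ beyond counting error (-0.04, -0.30 to 0.23).

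*Ptger4* (ENSMUSG00000039942, chr15:5206661-5244187, minus strand, overlapped on the other strand by *Ttc33*) had 677, 1070 and 560 UMIs, or 19.0 CPM (Ctrl), 20.4 (LP1) and 9.12 (LP4). Its log2 ratio was 0.10 in LP1 (-0.04 to 0.25) and -1.06 in LP4 (-1.22 to -0.89). Over 10 alternative settings its LP4 ratio ran from -1.26 (mean of the cells' shares) to -0.85, so *Ptger4* was below Ctrl throughout, and it fell short of 2-fold under median-of-ratios and TMM scaling. *Ptger2* also overlaps annotated noncoding genes on the other strand.

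The EP1 and EP3 genes were scarce. *Ptger1* had 71, 30 and 34 UMIs and *Ptger3* had 116, 130 and 85. Both were 2-fold lower in LP4 than in Ctrl, beside 15.6% of all genes tested. *Ptger1* was that low in LP1 as well (log2 -1.80, -2.47 to -1.16), beside 3.15% of all genes tested. *Ptgir*, the prostacyclin receptor, had 8.41, 8.52 and 19.0 CPM (log2 LP4 over Ctrl 1.17, 0.99 to 1.36), beside 11.6% of all genes tested that were 2-fold higher. The other 4 listed prostanoid receptor genes, for prostaglandin D2, thromboxane and prostaglandin F, had at most 4 UMIs in any library.

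**Figure D2:**
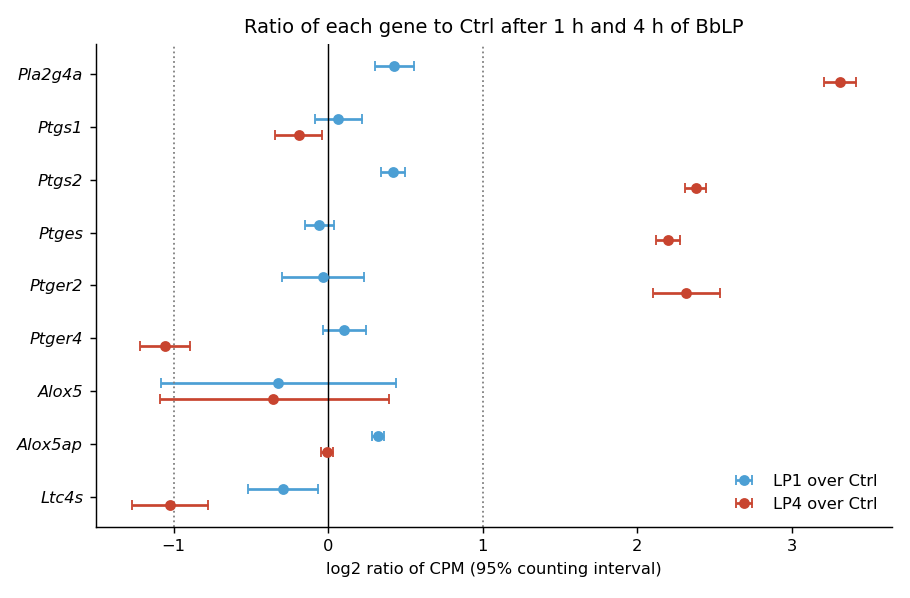
Log2 ratio of CPM to Ctrl (horizontal axis) for each gene (rows) in LP1 and in LP4. Points are the ratio of 1 library to 1 library, bars are 95% counting intervals, and dotted lines mark 2-fold. *Pla2g4a*, *Ptgs2*, *Ptges* and *Ptger2* lie between 2.20 and 3.31 in LP4, and no gene reaches 2-fold in LP1.

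Of the 3 leukotriene genes among the 9, none was 2-fold higher in LP4 than in Ctrl, beside 11.6% of all genes tested. *Ltc4s* was 2-fold lower by CPM, beside 15.6%. Counts over 3 genes do not set them apart from all genes tested. *Alox5ap* encodes FLAP, the protein that presents arachidonic acid to 5-lipoxygenase. The gene (ENSMUSG00000060063, chr5:149264767-149288153, plus strand) had 8374 UMIs (Ctrl), 15389 (LP1) and 14305 (LP4), or 235, 293 and 233 CPM. LP1 stood 0.32 above Ctrl on the log2 scale (0.28 to 0.36) and LP4 did not differ from Ctrl beyond counting error (-0.01, -0.05 to 0.03), though LP4 stood 0.20 above Ctrl under median-of-ratios scaling. *Alox5ap* was the 1 gene of the 9 with its highest CPM in LP1 by intervals that did not overlap those of the other libraries.

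*Alox5*, 5-lipoxygenase itself, was barely seen. The gene (ENSMUSG00000025701, chr6:116410077-116461178, minus strand) had 29 UMIs (Ctrl), 34 (LP1) and 39 (LP4), or 0.813, 0.648 and 0.635 CPM, and its log2 ratio in LP4 of -0.36 had an interval of -1.09 to 0.39, so a difference was not detectable at this depth. A cluster of neutrophil-like cells, named from 7 neutrophil markers among its 10 leading genes, held 5 of 27 cells with an *Alox5* UMI in Ctrl, 5 of 33 in LP1 and 5 of 37 in LP4, although it had only 32, 25 and 29 cells. *Alox5* was found in 15.6% of these cells in Ctrl (exact binomial interval 5.28 to 32.8) and in 0.445% of all Ctrl cells (0.293 to 0.646). All 11 neutrophil markers had UMIs in every library, with summed levels of 564, 465 and 749 CPM. Part of these sums came from other cells. *Mmp8*, at 174, 174 and 184 CPM, was found in 46.7%, 59.8% and 65.7% of all cells. The listed markers *Ly6g* and *Retnlg* were nearly absent, with at most 0.841 CPM in any library. In each of the clusters A to F described below, *Alox5* had at most 13 UMIs in any library.

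*Ltc4s* encodes leukotriene C4 synthase, which makes the first cysteinyl leukotriene. The gene (ENSMUSG00000020377, chr11:50236461-50238616, minus strand, with an antisense gene, *Gm26542*) had 300 UMIs (Ctrl), 360 (LP1) and 254 (LP4), or 8.41, 6.86 and 4.14 CPM. Its log2 ratio was -0.29 in LP1 (-0.52 to -0.07) and -1.02 in LP4 (-1.27 to -0.78), and -0.82 in LP4 under median-of-ratios scaling, so the direction held and the 2-fold line was not kept. Mast cells are a known source of this enzyme. The summed level of 9 mast cell or basophil markers was 4.40, 5.18 and 1.19 CPM, nearly all of it from *Gata2*, which is not restricted to these cells, at 4.26, 5.11 and 1.09 CPM. *Cpa3*, *Ms4a2* and *Mcpt8* had at most 0.112 CPM in any library, and *Fcer1a*, *Prss34*, *Cma1*, *Mcpt4* and *Tpsb2* were at 0 in every library. Over the macrophage-like and cycling-like clusters alone the LP4 ratio of *Ltc4s* was -1.01.

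Of 11 further genes for synthesis, transport and breakdown of leukotrienes, 8 were tested. Beside 11.6% of all genes tested, 1 of these was 2-fold higher in LP4 than in Ctrl. This was *Mgst3*, a microsomal glutathione transferase of the family that also holds *Ltc4s*, with 12.0 CPM (Ctrl), 34.2 (LP1) and 42.4 (LP4). *Mgst3* was already 2-fold higher in LP1 (log2 1.51, 1.36 to 1.67), the 1 gene of the 37 pathway genes tested that was, beside 1.45% of all genes tested. *Lta4h*, leukotriene A4 hydrolase, which makes leukotriene B4, had 13.4, 15.5 and 15.4 CPM. Among leukotriene receptors, *Cysltr1* had 13.1, 16.4 and 16.2 CPM and *Ltb4r1*, the high-affinity receptor for leukotriene B4, had 3.70, 3.53 and 1.87 CPM, while *Cysltr2* passed 2-fold on 23 UMIs in LP4 and 2 in Ctrl. The other 5 lipoxygenase genes had at most 12 UMIs in any library.

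In all, 38 of 55 further pathway genes were tested between LP4 and Ctrl, of which 4 were 2-fold higher and 9 lower, beside 11.6% and 15.6% of all genes tested, with a median log2 ratio of -0.42. Under median-of-ratios scaling, 4 were higher and 8 lower, where all genes had 15.3% and 11.5%. The 9 genes themselves had a median of -0.01 and all genes tested one of -0.15.

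To compare shares of cells with a UMI at equal depth, 2000 UMIs were drawn from every cell, and shallower cells (122 in Ctrl, 13 in LP1, 45 in LP4) were dropped. *Ptgs2* was found in 10.8% of Ctrl cells (10.0 to 11.6), 13.3% of LP1 cells (12.4 to 14.3) and 31.7% of LP4 cells (30.4 to 33.1). Unthinned, the shares were 21.6%, 35.4% and 56.9%. *Pla2g4a* was found in 3.97%, 4.75% and 29.6% of thinned cells and *Ptges* in 7.95%, 7.42% and 24.2%, so most thinned LP4 cells still had no UMI of a given gene.

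*Ptger2* was found in 1.23%, 1.19% and 5.88% of thinned cells. *Ptger4* was found in 4.10%, 3.96% and 1.71%, and *Ltc4s* in 1.88%, 1.35% and 0.605%. *Alox5ap* was found in 38.0%, 43.9% and 37.3%. The order of the libraries followed that of the CPM for each of these genes except *Ptger4*, whose thinned shares in Ctrl and LP1 were the other way round and had overlapping intervals.

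Free RNA can give UMIs in cells that do not transcribe a gene, and its part in these shares was not tested. Shares in neutrophil-like cells are given beside those of all cells. After thinning, *Ptgs2* was found in 0 of 21 such cells in Ctrl, 0 of 21 in LP1 and 1 of 29 in LP4 (3.45%, 0.0873 to 17.8), below the 31.7% of all LP4 cells. Whether neutrophil-like cells transcribe *Ptgs2* was not tested. *Pla2g4a* was found in 17.2% (5.85 to 35.8) and *Ptges* in 10.3% (2.19 to 27.4) of the 29 LP4 neutrophil-like cells, with wide intervals, and *Ltc4s* in none of these cells in any library. These cells held a median of 4736 UMIs over the 3 libraries. Without thinning, *Ptgs2* was found in 3 of the 29 LP4 neutrophil-like cells (10.3%, 2.19 to 27.4), beside 56.9% of all LP4 cells.

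The 3 genes of prostaglandin E2 synthesis were spread unevenly over LP4 cells. *Ptgs2* had a mean of 4.02 UMIs per LP4 cell and up to 137 in a cell, the 10% of cells with the most UMIs held 50.8% of them, and 2658 of 4670 cells had any. *Ptges* had a mean of 2.63 and a maximum of 56, with 53.8% of its UMIs in the top 10% of cells. *Pla2g4a* had a mean of 2.89 and a maximum of 36, with 39.9% in the top 10%.

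*Alox5ap*, at a mean of 3.06 UMIs per LP4 cell, had 27.8% of its UMIs in the top 10% of cells and a maximum of 19. The variance over the mean of UMIs per cell, which is near 1 where transcripts are shared out at random, was 3.08 for *Ptgs2*, 2.39 for *Ptges*, 1.45 for *Pla2g4a* and 1.05 for *Alox5ap* in thinned LP4 cells. In thinned Ctrl cells it was 1.39, 1.07, 1.14 and 1.10 in the same order. Among these genes within LP4, *Ptgs2* and *Ptges* thus had the widest spread over cells. Both measures depend on the mean UMIs per cell, so a change of spread from Ctrl was not separated from a change of level. In unthinned Ctrl cells the top 10% held 66.4% of *Ptgs2* UMIs, 57.1% of *Ptges*, 96.5% of *Pla2g4a* and 32.4% of *Alox5ap*. These shares were above those in LP4.

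**Figure D3:**
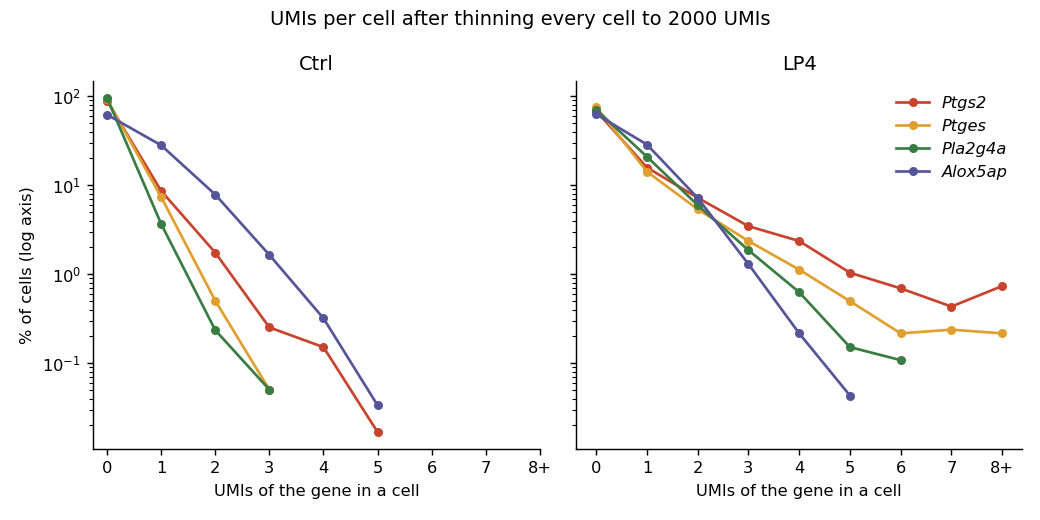
Share of cells (vertical axis, %, log scale) with a given number of UMIs (horizontal axis) of *Ptgs2*, *Ptges*, *Pla2g4a* and *Alox5ap* in Ctrl and LP4, after thinning each cell to 2000 UMIs. Points are shares of 5949 Ctrl and 4625 LP4 cells, and shares of 0 are not drawn. In LP4 the lines of *Ptgs2* and *Ptges* reach 8 or more UMIs, while *Alox5ap* ends at 5 UMIs in both libraries.

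Clusters were formed without the 9 genes and the pathway list, from genes that differed by less than 1.5-fold between libraries. The 6 clusters lettered A to F met the minimum of 50 cells per library. Clusters A to D were macrophage-like and E was cycling-like by listed markers. F was called dendritic cell-like from 4 listed markers among its 10 leading genes, *H2-Eb1*, *H2-Aa*, *H2-Ab1* and *Cd74*. In F, 5 of 10 macrophage markers were also found in at least 50% of cells. *Flt3*, *Ccr7*, *Xcr1* and *Clec9a*, on the same dendritic cell list, had at most 0.635 CPM in any library. Whether F holds dendritic cells was not tested. The share of cells in cluster C was 15.0% in Ctrl and 37.9% in LP4, and that in D was 27.6% and 6.68%, so the largest macrophage-like cluster was D in Ctrl and C in LP4. *Pla2g4a*, *Ptgs2*, *Ptges* and *Ptger2* were each higher in LP4 than in Ctrl in 6 of 6 clusters, with intervals above 0 except for *Ptger2* in cluster F. *Ltc4s* was lower in 6 of 6 clusters, with intervals below 0 in 3, though not in every cluster at Leiden resolution 0.3. *Ptger4* was lower in 5, and in cluster B its log2 ratio was 0.32 (-0.14 to 0.79). How many of all genes were higher or lower in every cluster was not computed. The clusters are parts of the summed counts in which these genes passed 2-fold, so their agreement is no separate support.

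The size of the ratio differed between clusters. Clusters C and D held different shares of Ctrl and LP4 cells, and their median depth was 8752 (C) and 4952.5 (D) UMIs. Ratios within C and D, here and below, may thus compare different cells, which was not tested. For *Ptgs2* the log2 ratio of LP4 to Ctrl ran from 1.28 (1.14 to 1.43) in cluster D, where Ctrl was already at 110 CPM and LP4 at 269, to 2.90 (2.75 to 3.05) in cluster C, where Ctrl was at 67.0 and LP4 at 500 CPM. *Ptges* had the reverse order in these clusters, with 3.30 (3.10 to 3.50) in D, from 38.4 to 378 CPM, and 2.71 (2.53 to 2.90) in C, from 42.4 to 277 CPM. Cluster B, the macrophage-like cluster led by *Mgll*, had the smallest *Ptges* difference, 0.83 (0.65 to 1.01), with 40.9 CPM in Ctrl and 72.7 in LP4.

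In cluster B the *Ptgs2* ratio was nonetheless 2.72 (2.50 to 2.95), from 21.2 to 139 CPM. In Ctrl the level of *Ptges* ran only from 38.4 CPM in D to 53.0 in E, and the intervals of all neighbours in that order overlapped, whereas in LP4 it ran from 72.7 in B to 378 in D. *Pla2g4a* was highest in the cycling-like cluster E in Ctrl, at 45.8 CPM, and in cluster A in LP4, at 305 CPM. Its ratio was at least 2.22 (1.97 to 2.48) in every compared cluster.

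*Ptger4* had its largest differences in clusters C (log2 -1.89, -2.26 to -1.51) and D (-2.14, -2.78 to -1.56). In D it had 38.9 CPM (Ctrl), 36.8 (LP1) and 8.81 (LP4), and in E its ratio of -0.05 (-0.60 to 0.51) did not differ from 0 beyond counting error. *Alox5ap* was above Ctrl in LP1 in 6 of 6 clusters with intervals above 0, and in LP4 its ratios ran from -0.07 to 0.22. Over the macrophage-like and cycling-like clusters alone the LP4 ratios of the whole library were nearly as before, with 2.37 for *Ptgs2*, 2.21 for *Ptges*, 3.33 for *Pla2g4a* and -1.05 for *Ptger4*.

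**Figure D4:**
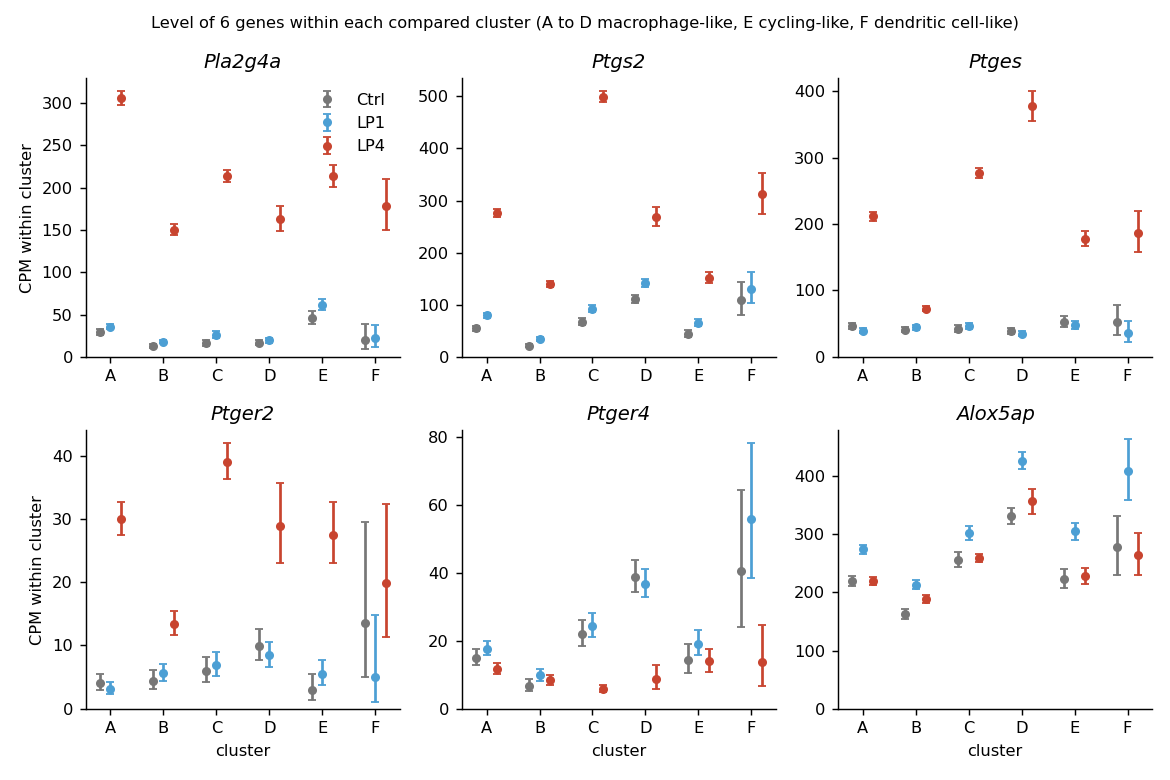
CPM within each compared cluster (horizontal axis, A to F) for 6 genes in Ctrl, LP1 and LP4. Points are 1 library each with exact Poisson 95% intervals, and axes are linear from 0 and set for each gene. In LP4 *Ptgs2* peaks in C at 500 CPM, *Ptges* in D at 378 CPM and *Pla2g4a* in A at 305 CPM, and cluster B is lowest for all 3.

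*Pla2g4a* was found more often in LP4 cells with a *Ptgs2* UMI than in those without. Over all LP4 cells the difference for *Ptges* was smaller, with an interval that held 0 at 2000 UMIs but not at 1000 or 4000. Cells were drawn once at each depth, so noise of the draw was not separated from depth. In thinned cells, *Pla2g4a* was found in 39.0% of the 1467 cells with a *Ptgs2* UMI and in 25.2% of the 3158 without, a difference of 13.8 percentage points (10.9 to 16.7, Newcombe interval over cells of 1 library). The difference was 13.3 points (7.20 to 19.3) within cluster A, 10.0 (3.23 to 17.4) within B and 15.7 (11.4 to 20.0) within C. In D, E and F it was between 5.86 and 13.1 points, with intervals that held 0. With cells thinned to 4000 UMIs it was 20.8 (9.54 to 31.7) in D, 15.6 (1.44 to 28.9) in E and 1.72 (-21.5 to 24.7) in F.

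*Ptges* was found in 24.7% of cells with a *Ptgs2* UMI and in 24.0% of those without, a difference of 0.71 points (-1.92 to 3.40). The difference was 2.90 points (0.396 to 5.60) when cells were thinned to 1000 UMIs and 3.20 (0.377 to 6.03) at 4000, with intervals above 0, where *Pla2g4a* had 8.81 and 19.5. At 2000 UMIs the *Ptges* difference lay between -3.79 and -0.58 points within clusters A to D, with intervals that held 0. At 4000 UMIs it was 20.7 points (6.70 to 33.9) within E, and the intervals within A to D and F held 0. *Alox5ap* was found in 37.6% and 37.2%. Without thinning, when deeper cells have more UMIs of every gene, the differences were 22.2 points for *Pla2g4a*, 6.25 for *Ptges* and 2.01 for *Alox5ap*. Both *Ptgs2* and *Ptges* were found in 7.83% of thinned LP4 cells (7.07 to 8.64), against 1.01% in Ctrl and 0.851% in LP1. The share of each gene alone was also higher in LP4, so this joint share does not show a tie between them in cells.

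**Figure D5:**
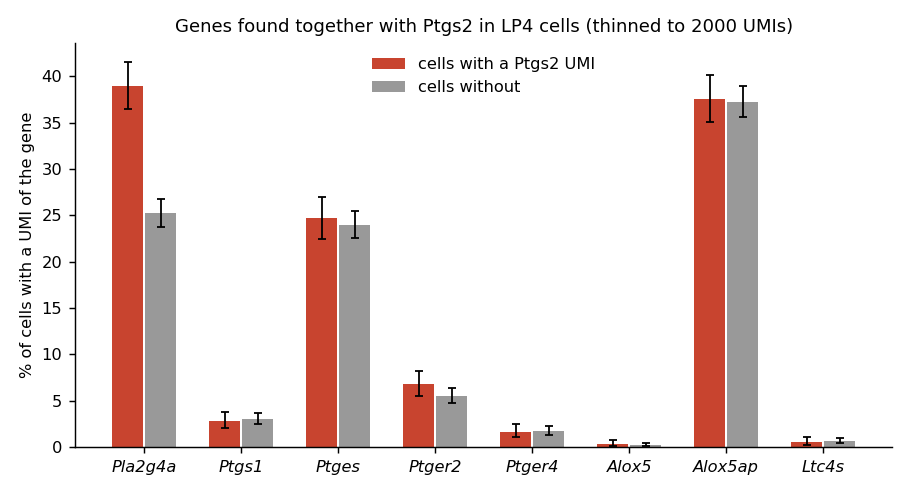
Share of LP4 cells with a UMI of each gene (vertical axis, %) among cells with and without a *Ptgs2* UMI, after thinning to 2000 UMIs. Bars are shares of 1467 and 3158 cells and error bars are exact binomial 95% intervals. The bars stand apart for *Pla2g4a*, at 39.0% and 25.2%, and nearly level for *Ptges*, at 24.7% and 24.0%.

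Of the 4 genes that stood higher in LP4, thinned LP4 cells held UMIs of none in 37.3%, of 1 in 38.6%, of 2 in 19.6%, of 3 in 4.39% and of all 4 in 0.0865%. In Ctrl the shares with none and with 1 were 78.1% and 19.8%.

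Over 4670 LP4 cells, Pearson's r of log-scaled counts with *Ptgs2* was 0.31 for *Pla2g4a* and 0.06 for *Ptges*, as a description of cells that share a library. Among 3078 other genes of at least 50 CPM, those with the highest r were *Cxcl2* (0.34) and *Cxcl1* (0.30), chemokines for neutrophils, *Errfi1* (0.28), an inhibitor of the EGF receptor, and *Il1b* (0.26) and *Il1a* (0.25), the interleukin 1 cytokines. Their levels between libraries did not all follow that of *Ptgs2*. *Cxcl2* had 4378 CPM (Ctrl), 4553 (LP1) and 1489 (LP4), and *Il1b* had 391, 448 and 940.

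*Pla2g4a* and *Ptgs2* are also neighbours on chromosome 1, on opposite strands, with start sites 138741 bases apart and no protein coding gene between them. The noncoding genes beside *Ptgs2* were also higher in LP4, *Ptgs2os2* past 2-fold and *Ptgs2os* short of it. *Ptgs2os2*, at chr1:150159043-150164948, had 3.81 CPM (Ctrl), 5.60 (LP1) and 12.1 (LP4) (log2 LP4 over Ctrl 1.67, 1.40 to 1.94). *Ptgs2os*, at chr1:150074873-150099963, had 1.09, 0.972 and 2.13 CPM (0.97, 0.44 to 1.52). The next protein coding genes with more than 20 CPM on the side of *Ptgs2* were *Odr4*, with 45.5, 46.5 and 43.4 CPM, and *Tpr*, with 345, 350 and 377 CPM. *Prg4*, lubricin, the protein coding gene next to *Tpr*, was scarce, with 6, 4 and 116 UMIs, and stood above Ctrl in LP4 (log2 3.49, 2.32 to 4.97). Of all genes tested, 11.6% were 2-fold higher in LP4 than in Ctrl. These neighbours were chosen after the levels of *Ptgs2* and *Pla2g4a* were seen, and whether their position plays a part was not tested.

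Fibroblasts also make cyclooxygenase 2 and prostaglandin E synthase. The summed level of 5 stromal markers was 3.67 CPM (Ctrl), 4.67 (LP1) and 16.7 (LP4), and all 5 had UMIs. Cluster H, unnamed and too small to be compared, had *Col1a2*, *Sparc*, *Mgp* and *Col3a1* among its leading genes and held 23, 19 and 19 cells. *Ptgs2* in it was at 72.8, 111 and 1364 CPM (1241 to 1496 in LP4), and *Ptges* was at 13.2, 15.1 and 87.7 CPM. The LP4 value of *Ptgs2* was above that of every compared cluster, but it comes from 19 cells. A few of these cells may carry it, and the interval does not cover the spread between cells. Cluster H held 2.40% of the LP4 UMIs of *Ptgs2* and 0.236% of those of *Ptges*. Over the macrophage-like and cycling-like clusters alone, the LP4 log2 ratios of *Ptgs2* and *Ptges* were 2.37 and 2.21.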

How the data were processed

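Single-cell RNA libraries of BMDMs were analysed, 1 for each of Ctrl, LP1 and LP4. Cell Ranger (7.1.0 per the submitters' processing notes) was run by the authors on mm10, and the deposited values are raw UMI counts per gene and barcode. The limits stated by the study were applied to barcodes (over 500 UMIs, over 500 genes, below 5% mitochondrial UMIs). They kept 15806 cells here, more than the paper reports after its own quality control, so the cell sets are not the same. UMIs were summed per library or cluster and expressed as CPM. Intervals at 95% are exact, Poisson for CPM, conditional binomial for ratios of counts, and binomial for shares. A ratio was read where both libraries together held 20 UMIs or more, and a gene was counted at 2-fold. Without replicates, since 3 wells were pooled into each library, no test was run.

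The 9 genes, the lists of 55 pathway genes and of marker genes, and the motifs were chosen with earlier results of these data known. Pathway genes were named where they had at least 10 CPM and a 2-fold difference, and further ones are given for their role. The genes most like *Ptgs2* are those with the highest Pearson's r over LP4 cells among genes of at least 50 CPM. Clusters came from 2000 variable genes centred within libraries, 30 principal components, 20 neighbours and Leiden resolution 0.5, and a cluster was compared where each library had 50 or more of its cells. The variable genes were picked from 5221 whose CPM differed by less than 1.5-fold between libraries, without mitochondrial and ribosomal protein genes. Genes that differed more between libraries thus did not shape the clusters. Doublets were not removed in the main values, and leaving out the 5% of cells with the highest Scrublet scores was an alternative. Gene positions are from GENCODE vM21 and promoter windows from RefSeq, both on GRCm38. Computation used scanpy 1.11.5 and leidenalg 0.10.2 with scipy 1.17.1, numpy 2.4.6 and pandas 2.3.3 in Python 3.11.15, while TMM factors came from edgeR 4.0.16 under R 4.3.3. The ratios were tried on simulated Poisson counts, which hold no spread between cells or cultures beyond counting error. Thinning was checked only for the number of UMIs left in each simulated cell. Other experiments of the study were not analysed here.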

Additional observations from a re-analysis of the deposited data

How the results depend on the processing

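The 4 genes higher in LP4 than in Ctrl stayed above 2-fold in all of the cell filters and scalings tried. The count of genes 2-fold lower in LP4 than in Ctrl was 2 with CPM and 0 with TMM and with median-of-ratios scaling, and the median log2 ratio of the 9 genes was then 0.16 and 0.20 in place of -0.01. With a 1.5-fold line, 2 genes in place of 1 were lower in LP4 than in LP1, and 15 pathway genes in place of 9 were lower in LP4 than in Ctrl. The difference in *Ptges* between LP4 cells with and without *Ptgs2* was 0.71 percentage points (-1.92 to 3.40). Within clusters it was -3.61 (A), -2.95 (C), -3.79 (D), 13.9 (E, -0.856 to 30.9) and 11.4 (F, -9.92 to 33.7). All of these intervals held 0. It was 2.90 at 1000 UMIs, 3.20 at 4000 and 6.25 without thinning, with intervals above 0. Of 270 recomputed log2 ratios of the 9 genes, 243 stayed within the counting interval of the main value, 27 moved outside it, and 11 changed sign, none of them a ratio past 2-fold. These were the LP1 ratios to Ctrl of *Ptges* and *Ptger2*, the LP4 ratios to Ctrl of *Ptgs1* and *Alox5ap*, and the LP4 ratio to LP1 of *Alox5*. Of 135 recomputed shares of cells, 79 moved outside their interval, mostly through another depth of thinning. The difference in *Pla2g4a* by *Ptgs2*, an alternative set chosen after seeing the data, was 8.81 points at 1000 UMIs, 19.5 at 4000 and 22.2 without thinning. With Leiden resolution 0.3 or 0.8 the same 4 genes were higher in LP4 in every compared cluster, a count that was not made over all genes. *Ltc4s* was lower in every compared cluster at 0.8 but not at 0.3, where its highest log2 ratio was 0.045. *Ptgs1* was lower in every compared cluster at 0.3 alone. No paired analysis was possible because each condition is 1 library. Depth limits *Alox5*, at 29 to 39 UMIs per library, and wells or mice pooled within a library cannot be told apart.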
